A study of Mus musculus with 2 samples.

Results

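The Myc, Mycn and Max network is a family of basic helix-loop-helix leucine zipper transcription factors. Its 10 members here were *Myc*, *Mycn*, *Max*, *Mxd1*, *Mxi1*, *Mxd3*, *Mxd4*, *Mnt*, *Mga* and *Mlx*, found by symbol among the 24421 genes of each library. They were chosen because *Mycn* was very abundant in these hematopoietic stem cells (HSCs) and lower in the Ezh2 KO-labelled library. That choice used the levels and the contrast described below, so all differences between the libraries are given as descriptions, with no test.

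There were 2 libraries, 1 per group, and no difference between them has a replicate check. Both groups were HSCs taken from the LSK gate (Lin-Sca-1+c-kit+) as its CD150+CD48-CD34-Flt3- fraction, from CD45.2 donor marrow carried by lethally irradiated CD45.1 recipients, with the strain labelled C57BL/6. The WT donors were Ezh2 +/+ CreERT+/-. The other library came from Ezh2 Δ/Δ CreERT+/- cells, whose floxed Ezh2 alleles are meant to be deleted by tamoxifen. Both groups carried the tamoxifen-dependent Cre and both received tamoxifen, 100 µl at 10 mg/ml daily for 5 days, with HSCs sorted 1 month later. The labels do not give the age or number of mice behind a library, nor the promoter of the CreERT transgene.

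Myc and Mycn proteins bind DNA as dimers with Max, mostly at the E-box CACGTG, and activate genes for growth, ribosome assembly and metabolism. The Mxd proteins (Mxd1, Mxi1, Mxd3, Mxd4), Mnt and Mga compete for the same partner Max and repress, the Mxd proteins and Mnt through Sin3 corepressors and Mga within a Polycomb complex named PRC1.6. Mlx is a Max-like partner for Mnt, some Mxd proteins and the glucose-sensing factors Mlxip and Mlxipl. In the bone marrow, Myc and Mycn are known to act together in the survival and differentiation of HSCs.

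The E-box is the letter string that ties the network together, so the members whose own promoters held it are shown. Promoters were RefSeq windows from 250 bases before to 50 bases after each start on GRCm38.p6, and 9 of the 10 members had an entry. CACGTG reads the same on both strands. It was found in 4 of these 9 members, against 8.09% of all genes with a promoter entry. The lines below are 5′ to 3′ on the strand of the gene, with the E-box in capitals.
Mxd4: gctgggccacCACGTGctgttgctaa
Mnt: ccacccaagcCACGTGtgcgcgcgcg
Mlx: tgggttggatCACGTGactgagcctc
Max: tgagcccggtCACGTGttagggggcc
The windows lie at chr5:34187914-34187939 on the minus strand for *Mxd4*, chr11:74830791-74830816 on the plus strand for *Mnt*, chr11:101087240-101087265 on the plus strand for *Mlx* and chr12:76962236-76962261 on the minus strand for *Max*. Counted from the RefSeq start, the E-box began at base -219 in *Mxd4*, -123 in *Mnt*, -40 in *Mlx* and -3 in *Max*. The string was not in the *Mycn* window, and *Myc* had no entry. A match describes letters in a window and not a bound site.

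*Mycn* carried the largest difference of the network, so its promoter is shown as well, as 172 bases that precede both the RefSeq and the GENCODE M21 start (chr12:12941915-12942086, minus strand, GRCm38.p6). The capitals mark TTTGGCGC, a letter string like the motif of E2F factors, which regulate the cell cycle. It was chosen after this promoter had been seen.
Mycn: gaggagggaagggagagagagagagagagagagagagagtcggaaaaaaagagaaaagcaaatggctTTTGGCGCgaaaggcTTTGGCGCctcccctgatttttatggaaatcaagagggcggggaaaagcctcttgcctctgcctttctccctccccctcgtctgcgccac
The string occurs 2 times here, beginning at bases -183 and -168 from the RefSeq start, and these copies do not overlap. Searched on both strands, it was held by 0.514% of all promoter windows and by no other member with an entry. Among the Myc target genes listed below, 6 of 73 promoter windows (8.22%) held it. Since the string was chosen after this promoter had been seen, nothing is read from these shares.

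Gene counts summed to 5763118 in WT and 4157280 in the Ezh2 KO-labelled library, and 3 counts, taken as the floor, equal 0.521 and 0.722 CPM, the count scaled to the same total in every library. Counts were divided by size factors to give normalised counts, and intervals are exact 95% intervals that cover counting error only. *Ezh2*, the targeted gene (chr6:47530139-47595341, minus strand), had 166 counts in WT and 129 in the Ezh2 KO-labelled library, a log2 ratio of 0.08 (-0.27 to 0.42), so its counts go against the label. A whole-gene count includes exons outside a floxed part and may miss such a deletion. *Xist* had 801 and 4 counts, whereas *Ddx3y*, *Eif2s3y*, *Kdm5d* and *Uty* had 0 in WT and 106 to 275 in the other library. The sex of the donors and the Ezh2 genotype thus cannot be told apart in any value below. Among 13 HSC marker genes, all tested, log2 ratios lay between -0.70 and 0.32, and the marker genes summed to 5280 and 5531 CPM. *Kit* and *Gata2* were among the most abundant.

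*Mycn* (chr12:12936093-12941914, minus strand, GRCm38, exons of 3295 bases in all) had 5939 counts in WT and 2079 in the Ezh2 KO-labelled library. After scaling, these became 5096.5 and 2422.7 normalised counts. WT was the high library, and the counting intervals (4968 to 5228 and 2320 to 2529) did not overlap. The log2 ratio, Ezh2 KO label over WT, was -1.07 (-1.146 to -1.001), which makes WT 2.103-fold higher. By raw count, *Mycn* ranked 65th of all genes in WT and 224th in the other library.

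*Myc* (chr15:61985391-61990374, plus strand, exons of 2717 bases) lay the other way. It had 3074 counts in WT and 2805 in the Ezh2 KO-labelled library, or 2637.9 and 3268.7 normalised counts. The second library was the higher after scaling, and the counting intervals (2545 to 2733 and 3149 to 3392) did not overlap. The log2 ratio was 0.31 (0.23 to 0.38), a 1.24-fold difference. *Myc* ranked 205th by raw count in WT and 142nd in the other library, so the order of both genes was exchanged between the libraries.

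**Figure D1:**
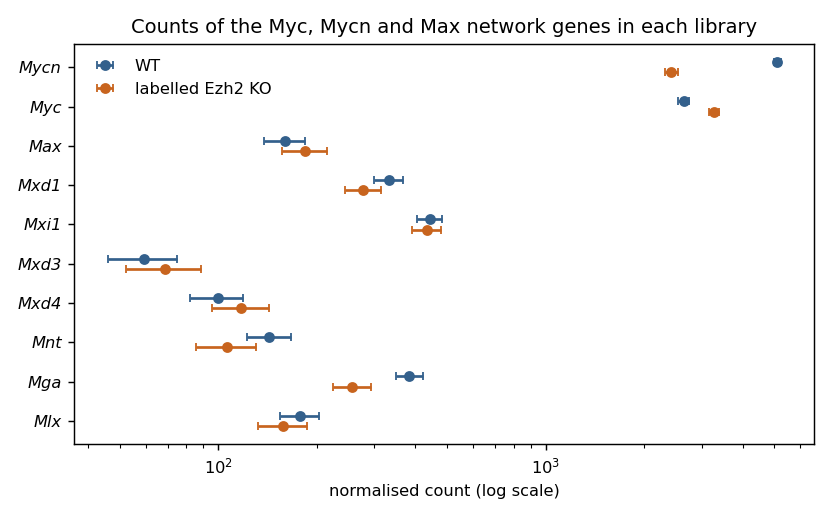
Normalised counts of the 10 members on a log axis, as 1 point per library (blue WT, orange labelled Ezh2 KO) with exact 95% counting intervals. *Mycn* is the highest member in WT at 5096.5 and *Myc* in the other library at 3268.7, while the other 8 members lie below 500 in both.

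A ratio within a library does not depend on the scaling between libraries. *Mycn* gave 65.9% (64.9 to 66.9, exact binomial) of the counts of *Myc*, *Mycn* and *Mycl* in WT. In the Ezh2 KO-labelled library it gave 42.6% (41.2 to 44.0). *Mycl*, the third gene of the family, had 0 counts in both libraries. Expressed as counts of *Mycn* per count of *Myc*, the values were 1.93 and 0.741, and the second was 0.384 times the first (0.357 to 0.412).

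*Myc* and *Mycn* lay in opposite directions, and their sum differed by less than *Mycn* alone. Together they had 7734 normalised counts in WT (7576 to 7896) and 5691 in the Ezh2 KO-labelled library, a log2 ratio of -0.44 (-0.49 to -0.39). The sum is of RNA and says nothing of protein.

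Across the network, *Mycn* was the only member at least 2-fold apart, at a mean of at least 1 CPM, which all 10 members passed. Among the 12588 genes that passed, 3.9% were at least 2-fold lower in the Ezh2 KO-labelled library and 4.91% at least 2-fold higher, and no member was in the latter group. At 1.5-fold, *Mycn* was again the only member lower, beside 10% of all genes, and no member was higher, beside 10.5%. Since the members were chosen on this contrast, nothing is read from these counts against the background.

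Large ratios were rarer at high counts. Of 9670 genes with a mean of at least 10 CPM, 1.19% were at least 2-fold lower and 0.993% at least 2-fold higher. Of 2519 genes with a mean of at least 100 CPM, a filter set after the data had been seen, 9 (0.357%) were at least 2-fold lower and 7 at least 2-fold higher. *Mycn* and *Myc* were the only members this abundant. The 9 lower genes were *Vwf*, *Fos*, *Nr4a1*, *Egr1*, *Plk2*, *F2r*, *Mycn*, *Fasn* and *Plxdc2*, in order of their ratio, named here after their values were seen. Among them, *Mycn* was the seventh by ratio and the third by level, after *Fos* and *Egr1*. Since *Mycn* was chosen for its abundance and this contrast, nothing is read from its place.

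**Figure D2:**
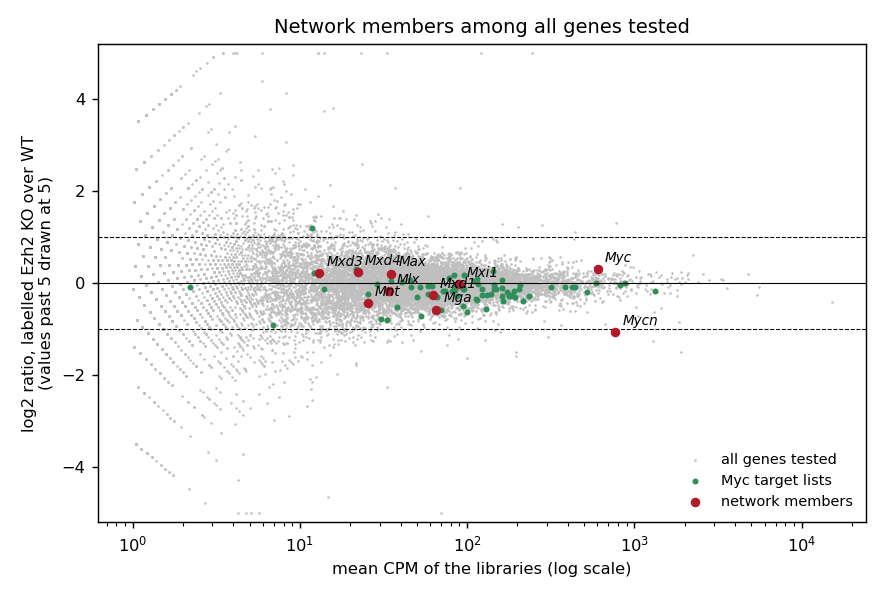
Log2 ratio (Ezh2 KO label over WT) against the mean CPM of both libraries on a log axis, for all 12588 genes tested (grey), genes of the Myc target lists (green) and the network members (red), with dashed lines at 2-fold. *Mycn*, chosen for its abundance and this contrast, lies just past the lower line, and the other 9 members lie between the lines.

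*Max* (chr12:76937269-76962201, minus strand), the partner that Myc and Mycn need to bind DNA, had 186 counts in WT and 158 in the Ezh2 KO-labelled library. These gave 159.6 and 184.1 normalised counts, with a log2 ratio of 0.20 whose interval (-0.11 to 0.52) includes 0. *Max* RNA was thus far below that of its activating partners in both libraries. For each count of *Max* there were 48.5 counts of *Myc* and *Mycn* in WT and 30.9 in the other library, and the second ratio was 0.638 times the first (0.512 to 0.796).

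The repressor arm was led by *Mxi1* (chr19:53310518-53375810, plus strand), which had 516 and 372 counts. At 442.8 and 433.5 normalised counts, both libraries lay within counting error, with a log2 ratio of -0.03 (-0.23 to 0.16). *Mxd1* (chr6:86647042-86669161, minus strand), known for its rise as myeloid cells differentiate, had 387 and 238 counts. Its normalised counts were 332.1 and 277.3, a log2 ratio of -0.26 (-0.50 to -0.02), so the WT library was slightly the higher.

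*Mxd3* (chr13:55325168-55329823, minus strand) is the Mxd gene known for expression in dividing cells. It was the member with the fewest counts, 69 in WT and 59 in the Ezh2 KO-labelled library, with a log2 ratio of 0.21 (-0.31 to 0.74). *Mxd4* (chr5:34173883-34187720, minus strand) had 116 and 101 counts and a log2 ratio of 0.24 (-0.16 to 0.64). Both intervals include 0, so a difference of *Mxd3* or *Mxd4* was not detectable at this depth.

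*Mnt* (chr11:74830920-74845725, plus strand), a repressor found in most cell types, had 167 counts in WT and 91 in the Ezh2 KO-labelled library. Its normalised counts of 143.3 and 106.0 gave a log2 ratio of -0.43 (-0.82 to -0.06). *Mga* (chr2:119897228-119969581, plus strand), a very large protein that joins Max to PRC1.6, had 447 and 220 counts. They scaled to 383.6 and 256.4, a log2 ratio of -0.58 (-0.82 to -0.35), so WT was 1.49-fold higher. *Mga* was the member next to *Mycn* in size of difference and stood just inside 1.5-fold.

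**Figure D3:**
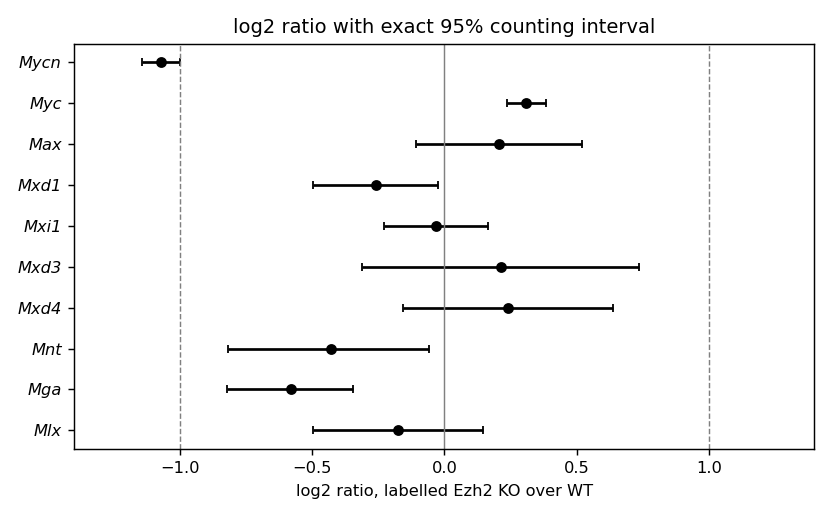
Log2 ratio of each member, Ezh2 KO label over WT, with its exact 95% counting interval and dashed lines at 2-fold. The intervals of *Mycn*, *Mga*, *Mnt* and *Mxd1* lie below 0, that of *Myc* lies above 0, and those of *Max*, *Mxi1*, *Mxd3*, *Mxd4* and *Mlx* include 0.

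The 6 repressor genes summed to 1461 normalised counts in WT and 1260 in the Ezh2 KO-labelled library, a log2 ratio of -0.21 (-0.32 to -0.10). The counts of *Myc* and *Mycn* exceeded theirs by 5.30-fold in WT and 4.52-fold in the other library. The second of these ratios was 0.853 times the first (0.784 to 0.929).

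*Mlx* (chr11:101087277-101092207, plus strand) had 207 and 135 counts, or 177.6 and 157.3 normalised counts, with a log2 ratio of -0.17 (-0.50 to 0.14). Of its exon bases, 19.3% overlap those of *Psmc3ip* on the opposite strand. Whether the counting used strand is not given in the sources used here, so the *Mlx* counts may hold reads of *Psmc3ip*. Exons of *Mxd4*, *Mxd3* and *Mxi1* overlap opposite-strand genes over 6.06%, 4.43% and 2.84% of their length.

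To compare levels between genes, CPM was divided by the merged exon length in kilobases (RPKM). In WT, *Mycn* stood at 312.8 RPKM (304.8 to 320.8) and *Myc* at 196.3 (189.4 to 203.4), and *Mlx* followed at 18.0. *Mxi1* (13.1), *Mxd1* (9.50), *Max* (8.97), *Mnt* (6.26), *Mga* (5.06), *Mxd3* (5.05) and *Mxd4* (2.37) came below. *Mxd1* and *Max* did not differ beyond their counting intervals, nor did *Mnt* and *Mga*, or *Mga* and *Mxd3*.

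In the Ezh2 KO-labelled library, *Myc* led at 248.3 RPKM (239.2 to 257.7) and *Mycn* came next at 151.8 (145.3 to 158.4). *Mlx* stood at 16.2, *Mxi1* at 13.1, *Max* at 10.6 and *Mxd1* at 8.10. *Mxd3* (5.99), *Mnt* (4.73), *Mga* (3.45) and *Mxd4* (2.86) closed the order. From *Mlx* down, each gene's interval overlapped that of the next, so neighbours in this order are not resolved, whereas *Mlx* (13.6 to 19.2) lay clear of *Max* (8.98 to 12.3). With the longest transcript as the length, *Max* stood at 16.6 and 19.6, so its place depends on the length used.

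**Figure D4:**
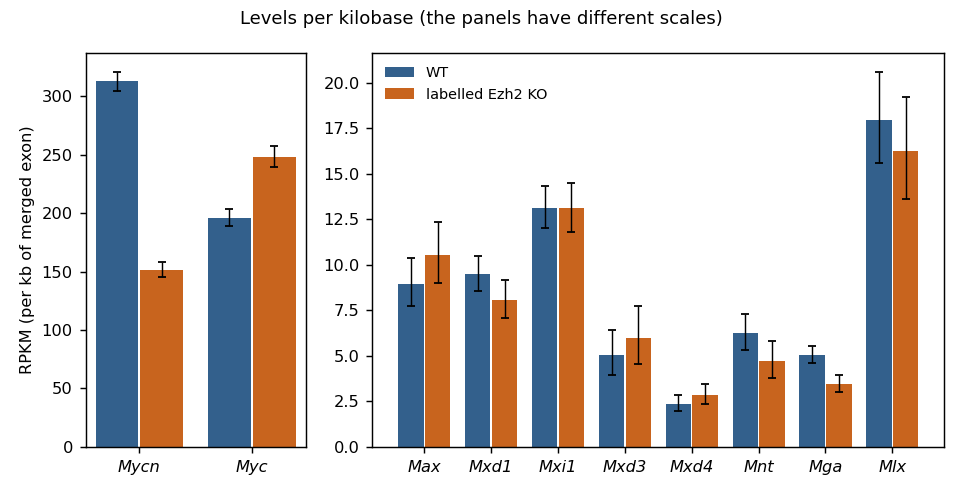
RPKM of each member per library as bars from 0, with exact 95% counting intervals, in panels of different scale. *Mycn* and *Myc* stand between 151.8 and 312.8, and the other 8 members between 2.37 and 18.0.

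On the same per-length scale, *Myc* and *Mycn* made up 88.2% of the network's RNA in WT and 86.0% in the Ezh2 KO-labelled library. The repressors made up 7.16% and 8.22%, *Max* 1.55% and 2.27%, and *Mlx* 3.11% and 3.49%. The sum of *Myc* and *Mycn* was 12.3 times that of the repressors in WT and 10.5 times in the other library. The share of *Myc* and *Mycn* together differed less between the libraries than the share of *Mycn* within the Myc family. Since the pair makes up most of the network total, its share can move little, and no stability is read from it. Its level was 509 RPKM in WT and 400 in the Ezh2 KO-labelled library.

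Of the other E-box factors related to the network, 10 of 12 were tested and none was 2-fold apart, with a median log2 ratio close to 0 (-0.0009). Of all genes tested, 3.9% were at least 2-fold lower and 4.91% at least 2-fold higher. With a mean of at least 10 CPM, these shares were 1.19% and 0.993%. In a list this short, nothing is read from the lack of 2-fold genes. *Mlxip*, the glucose-sensing partner of Mlx, had 361 and 358 counts and a log2 ratio of 0.43 (0.21 to 0.64). *Mlxipl* had 4 and 3 counts. The lysosomal regulator *Tfeb* had 256 and 129 counts (-0.54) and its relative *Mitf* 36 and 13 (-0.98), whereas *Tfe3* (0.20) and *Tfec* (-0.03) had intervals that include 0. So did *Usf1* (0.23), *Usf2* (-0.03) and *Tfap4* (0.11), which bind E-boxes, and *Srebf1* (-0.03) and *Srebf2* (0.02), regulators of lipid synthesis.

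*Txnip* and *Arrdc4*, known targets of Mlx with Mlxip that restrain glucose uptake, were both higher in the Ezh2 KO-labelled library. *Txnip* had 10141 and 11393 counts, a log2 ratio of 0.61 (0.57 to 0.65), and *Arrdc4* had 819 and 770, a log2 ratio of 0.35 (0.21 to 0.50).

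Genes of the complexes that work with the network had medians close to 0. Among 13 Myc coactivators, with *Cdk9* and *Ruvbl1* among the most abundant, the median log2 ratio was 0.02, and 5 were below 0. Among 12 Sin3 corepressor genes, with *Rbbp7*, *Rbbp4* and *Hdac1* the most abundant, the median was -0.02, and 6 were below 0. Among 11 genes of Myc protein turnover, led by *Usp7*, *Huwe1* and *Gsk3a*, the median was 0.02. The 10 genes around Mga in PRC1.6 had a median of 0.02, and *Tfdp1*, *Wdr5* and *Rnf2* were the most abundant. In none of these lists was a gene 2-fold apart. Of all genes with a mean of at least 10 CPM, 1.19% were at least 2-fold lower and 0.993% at least 2-fold higher. Nothing is therefore read from the lack of 2-fold genes in such short lists. In the list around Mga, *Pcgf6* (169 and 73 counts, -0.76) and *L3mbtl2* (409 and 200, -0.59) were past 1.5-fold lower. The interval lay below 0 in 4 of the 10 genes of that list and above 0 in 2, *E2f6* (0.26) and *Rnf2* (0.20). Over all genes tested, these shares were 20.8% and 19.2%, or 23.4% and 19.6% of genes with a mean of at least 10 CPM. With 10 genes, nothing is read from the counts against these shares. *Ccnt1* (276 and 306, 0.59), a subunit of the elongation kinase P-TEFb, was past 1.5-fold higher. Of all genes tested, 10% were 1.5-fold lower and 10.5% 1.5-fold higher. *Pcgf6*, *L3mbtl2*, *E2f6* and *Ccnt1* were named, and the ratio of *Rnf2* given, after their values were seen.

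Known Myc target genes lay more often below 0 than above it. Over 73 genes in 3 lists, all tested, 58 (79.5%) had a log2 ratio below 0, against 50.4% of all genes tested, and the median was -0.13, against -0.003. The interval lay below 0 in 32 of the 73 (43.8%) and above 0 in 2 (2.74%), against 20.8% and 19.2% of all genes. Since abundant genes have narrower intervals, the share with an interval below 0 was 23.4% of genes with a mean of at least 10 CPM and 29.3% with at least 100 CPM. None was 2-fold lower, beside 3.9% of all genes, and 6 of 73 were 1.5-fold lower, beside 10%. Among abundant genes, 568 of 9670 with a mean of at least 10 CPM and 49 of 2519 with at least 100 CPM were 1.5-fold lower. Whether the 1.5-fold count exceeds the background thus depends on the filter. The lists were written with earlier results of these libraries known, and genes of a list are not independent replicates.

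Among 34 nucleolar and ribosome assembly targets, 26 were below 0 with a median of -0.16. The most abundant, *Ncl* (4975 and 3684 counts, 0.01), *Npm1* (3361 and 2491, 0.01) and *Mybbp1a* (2269 and 1568, -0.09), had intervals that include 0. Among 29 metabolic and mitochondrial targets, 24 were below 0 with a median of -0.13. *Ldha*, the lactate dehydrogenase subunit, had 8076 and 5292 counts (-0.17), the translation factor *Eif4a1* had 3165 and 2023 (-0.20), and *Sord* had 2503 and 1732 (-0.09). Among 10 cell cycle targets, 8 were below 0 with a median of -0.09. *Ccnd2* (-0.04) and *Cdk4* (-0.10), which drive entry into the cycle, and the replication helicase subunit *Mcm5* (-0.39) were the most abundant. *E2f2* was the only target 2-fold apart, with 40 and 69 counts and a log2 ratio of 1.20 (0.65 to 1.83), higher in the Ezh2 KO-labelled library.

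Of 6 genes known to be repressed by Myc, 4 were tested. Their median log2 ratio was 0.13, and 2 of the 4 were below 0. *Ndrg1* had 1527 and 1582 counts (0.49) and *Gadd45a* 97 and 96 (0.42), whereas of the cell cycle inhibitors *Cdkn1a* had 91 and 60 (-0.16) and *Cdkn1b* 46 and 26 (-0.37), with intervals that include 0. *Cdkn2b* and *Cdh2* had 0 counts in both libraries.

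The E-box was also looked for in the target genes. It was held by 18 of the 65 that had a promoter entry (27.7%), against 8.09% of all genes. Whether a target holds it says nothing of its ratio here.

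**Figure D5:**
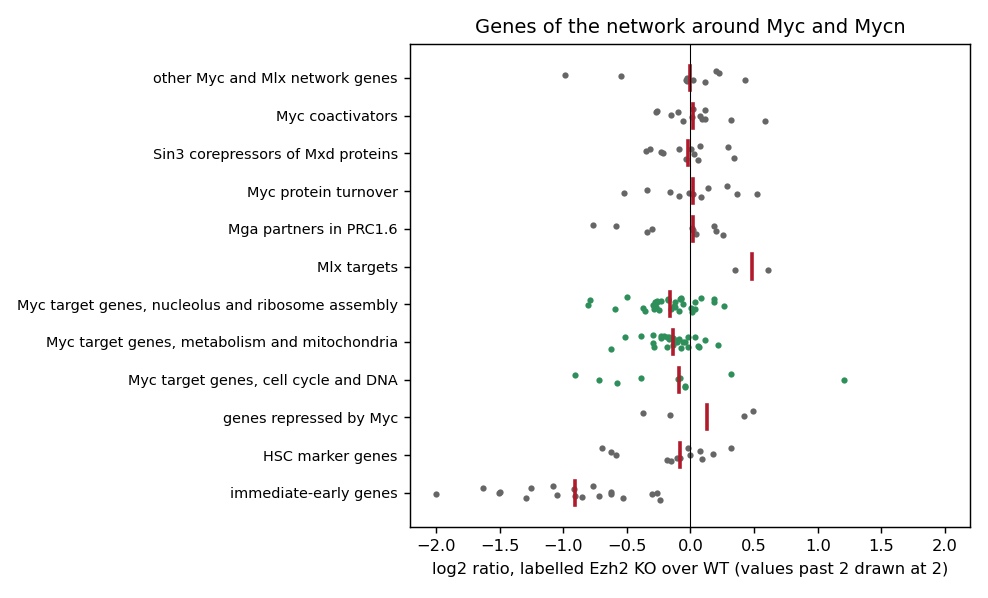
Log2 ratio (Ezh2 KO label over WT) of each tested gene of the lists, as 1 point per gene, with the list median as a red bar and values past 2 drawn at 2. The Myc target lists (green) have medians of -0.16, -0.13 and -0.09, and the immediate-early genes a median of -0.91. All 19 immediate-early points lie below 0, beside 50.4% of all genes tested. *Atf3*, which was higher in the Ezh2 KO-labelled library, and *Egr3* are not drawn, since the filter on low values dropped them.

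Genes beside *Mycn* and *Myc* on their chromosomes had ratios of either sign. Around *Mycn*, *Ddx1* (923 and 630 counts, -0.11) and *Nbas* (144 and 100, -0.08) had intervals that include 0, and *Fam49a* had 266 and 248 counts and a log2 ratio of 0.34. Around *Myc*, the long noncoding RNA gene *Pvt1* had 23 and 31 counts with a wide interval (0.84, 0.05 to 1.72), *Fam84b* had 618 and 269 (-0.76), and *Asap1* had 463 and 363 (0.09).

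The genes with the levels most like *Mycn*, by Euclidean distance between log2(normalised count + 1) in the 2 libraries, were *Malat1* (distance 0.277), *G3bp1* (0.529) and *Set* (0.536). Those most like *Myc* were *Calm2* (0.0619), *Rpl14* (0.0727) and *Rpl36* (0.0825). *Malat1* had 4250 and 2275 normalised counts, so even the nearest gene to *Mycn* had a smaller ratio (-0.90). With 2 libraries, this likeness is a description of a pair of levels only.

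Other sets of genes moved with *Mycn* between the libraries, and their part in the *Mycn* difference was not tested. Immediate-early genes, known to be induced within minutes of stimulation or cell handling, had a log2 ratio below 0 in 19 of 19 tested, and 8 were at least 2-fold lower. The list holds 21 genes. The filter on low values dropped *Atf3* (3 and 5 counts, higher in the Ezh2 KO-labelled library) and *Egr3* (3 and 2). *Egr2* (18 and 0), among the 8, passed it only through WT, where it is high. Of all genes tested, 50.4% were below 0 and 3.9% at least 2-fold lower, or 1.19% of those with a mean of at least 10 CPM. The median of the immediate-early genes was -0.91, and they summed to 14442 CPM in WT and 7661 in the other library. *Fos* had 16143 and 4198 counts, *Zfp36* 13698 and 5576, and *Ier2* 9102 and 4352. Of the 9 abundant genes at least 2-fold lower, *Mycn* included, 3 (*Fos*, *Nr4a1* and *Egr1*) belong to this list. The filter of 100 CPM behind these 9 was set after the data had been seen. The share of the list among all 2519 genes this abundant was not counted, so nothing is read from the overlap. For comparison, the log2 ratio was -1.07 for *Mycn* and 0.31 for *Myc*, which is itself known as an early response gene. Whether stimulation or handling bears on either value was not tested.

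The summed levels of 4 marker lists of mature or committed cells were higher in the Ezh2 KO-labelled library, though not every gene of them was. Of all genes tested, 4.91% were at least 2-fold higher and 50.4% were below 0. Eosinophil genes summed to 1.91 CPM in WT and 781 in the other library, with *Prg2* at 0 and 2030 counts, *Epx* at 0 and 1000, and *Prg3* at 0 and 116. Of these genes, 9 of 10 were in the files. The filter on low values kept 7 of them, largely through the library where they are high, and dropped *Ccr3* (5 and 4 counts) and *Alox15* (4 and 0). Neutrophil genes, led by *Ngp*, *S100a8* and *S100a9*, summed to 2116 and 3946 CPM, with 5 of 12 at least 2-fold higher and 3 of 12 below 0. *Elane* had 860 and 374 counts, a log2 ratio of -0.76 (-0.94 to -0.58), and *Prtn3* (-0.07) and *Ctsg* (-0.01) had intervals that include 0. Erythroid genes, led by *Car1*, *Klf1* and *Alas2*, summed to 83.6 and 227 CPM, with 5 of the 8 tested at least 2-fold higher, *Alas2* at a log2 ratio of -0.10, and *Hbb-b1* and *Hba-a1* at 0 in both. B lymphoid genes, led by *Cd79b*, *Cd79a* and *Vpreb1*, summed to 48.4 and 88.8 CPM, with *Rag1* at 0 in both. In all, these 39 genes gave 0.225% of gene counts in WT and 0.504% in the Ezh2 KO-labelled library. In bulk samples, fewer cells of a type and less RNA per cell cannot be told apart, and the part of such cells in the ratios of *Mycn*, *Myc* or the repressors was not tested.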

How the data were processed

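RNA was measured in 2 mouse HSC libraries, 1 labelled WT and 1 labelled Ezh2 KO, grouped by title and genotype. Per the labels, total RNA was amplified with a SMARTer Ultra Low Input kit, sheared and made into libraries with 8 PCR cycles. The values the authors deposited are raw counts per gene symbol, not normalised. The submitters' processing notes name the build mm10, TopHat2 2.0.13, Bowtie2 2.1.0, StringTie, edgeR and bedtools, with no roles. The counting program, its strand setting and its annotation are not given in the sources used here. In each file, 5 closing entries for reads outside genes were left out of totals. Reads without a gene made up 44.9% of all entries in WT and 44.1% in the other library. PCR copies were not told apart, so intervals cover counting error only.

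Counts were scaled with the median-of-ratios size factors of DESeq2 1.42.0 in R 4.3.3. Ratios are log2(normalised count + 1), Ezh2 KO label minus WT, for genes with a mean of at least 1 CPM. Intervals are exact (Poisson for a count, Clopper-Pearson for a share or a ratio of 2 counts, conditional for a ratio of ratios). With 1 library per group, no p-value was computed. RPKM used merged GENCODE M21 exons (GRCm38, the same assembly as mm10), where 23334 of 24421 symbols matched 1 gene. Promoters are RefSeq entries of GRCm38.p6. Calculations ran in Python 3.11.15 with scipy 1.17.1, numpy 2.4.6, pandas 2.3.3 and matplotlib 3.10.9, and the ratio script was tested on simulated data.

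The members, gene lists and rules were chosen with earlier results of these data known. Genes named were the 10 members, *Ezh2*, related factors and neighbours with at least 10 counts, the 3 most abundant of each list, list genes at least 2-fold apart with a mean of at least 10 CPM, and the 3 genes nearest to *Mycn* and to *Myc*. In the marker lists only the 3 most abundant were named by rule. Others named beside them were chosen after their values were seen. A few genes that the rule would name are not reported here. The alternatives were edgeR 4.0.16 TMM scaling, total-count scaling, pseudocounts of 0.5 and 5, the WT library thinned to the other total, a 1.5-fold threshold, no filter, filters of 10 and 100 CPM, the longest transcript and no length scaling.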

Additional observations from a re-analysis of the deposited data

Results flagged for a closer look

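A signal outside the gene counts differed between the libraries. Entries for reads with more than 1 alignment made up 12.27% (12.25 to 12.29) of all entries in the Ezh2 KO-labelled library and 10.75% (10.73 to 10.77) in WT, and they enter none of the gene counts above. With 1 library per group, whether this gap exceeds the spread between libraries was not tested.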

How the results depend on the processing

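No paired analysis was possible because there was 1 library per group, and leaving out a library would leave no comparison. Under the alternatives for scaling, pseudocount and thinning, the log2 ratios of the 10 members kept their direction and moved by less than their counting intervals in 50 of 50 recalculations. That of *Mycn* lay between -1.07 and -1.04 and that of *Myc* between 0.31 and 0.34. The count of members at least 2-fold lower stayed at 1 and that of members at least 2-fold higher at 0 in all 9 alternatives for each, the filter of 100 CPM having been added after the data were seen. Values that compare genes depended on the length used. Per kilobase, the *Mycn* share of the Myc family was 61.4% in WT and 37.9% in the Ezh2 KO-labelled library. The Myc family over repressor ratio was 11.1 and 9.15 with the longest transcript and 5.30 and 4.52 with no length scaling. Total-count scaling moved the median of all genes to 0.03. The near-zero medians changed sign for the other E-box factors (to 0.04 with the WT library thinned), the Sin3 genes (to 0.01 with total-count scaling) and the neighbours (to -0.08 at 10 CPM or more). At that filter the median was 10.2 for the eosinophil genes left, *Prg2*, *Epx* and *Prg3*, all with 0 counts in WT. For the B lymphoid list, the value of 0.31 is that of *Cd79b*, the only gene left. The median was 0.96 for neutrophil genes and 0.42 for the genes repressed by Myc, with fewer genes tested. Among the members, depth limits *Mxd3* and *Mxd4*, with at most 116 counts each.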
